A study of Mus musculus with 6 samples.

Results

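The 10 genes described here encode the enzymes that open ceramide into sphingosine and carry sphingosine on to sphingosine 1-phosphate (S1P) and out of the pathway. They are the ceramidase genes Asah1, Asah2, Acer1, Acer2 and Acer3, the sphingosine kinase genes Sphk1 and Sphk2, the S1P lyase gene Sgpl1 and the S1P phosphatase genes Sgpp1 and Sgpp2. They were taken by gene name from a table of 55414 mouse genes, and each of the 10 names matched 1 row. RNA had been sequenced from the hippocampus in 6 libraries, 3 of CerM-treated and 3 of vehicle-treated mice. CerM is not spelled out in the labels, which also give no strain, sex, age, dose or duration. The title of the series links elevated ceramides and an altered gut flora to depression induced by corticosterone, and its design compares expression between both treatments. The titles call the libraries biological replicates without saying that each came from its own mouse, and p-values therefore reflect only how far these libraries spread, which may be technical.

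Ceramidases cut the fatty acid off ceramide and leave sphingosine, and they are told apart by the acidity in which they work and by their place in the cell. Sphingosine kinases add a phosphate and make S1P, a signalling lipid that acts inside the cell and on receptors at its surface. S1P phosphatases take the phosphate off again, which returns sphingosine to the pool from which ceramide can be rebuilt, while S1P lyase cleaves S1P for good and is the only known exit from sphingolipid metabolism. In brain, S1P and ceramide take part in myelin upkeep, vascular barrier function and neuronal excitability.

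Values are TPM, transcript abundances that are scaled for transcript length and library total and can be set side by side between genes. Totals ran from 993379 to 995403 TPM per library. TPM keeps no read depth, so counting error is unknown and precision rests on 3 libraries per group. Markers of hippocampal neurons, among them Prox1 of granule cells and Neurod6 of pyramidal cells, were present in all 6 libraries. Their sum over 8 of 8 genes was 464 to 504 TPM in CerM and 341 to 531 TPM in vehicle. Vehicle replicate 1 stood apart, with the 341 TPM of that sum, 215 TPM of 5 neocortex markers against 86.9 to 94.3 TPM in the other libraries, and 3907 TPM of 7 oligodendrocyte markers against 5999 to 7147 TPM. Of the hippocampal neuron markers, Calb1 was instead highest in vehicle replicate 1 (52.8 TPM). Wfs1 (59.9 TPM in vehicle replicate 1) lay above CerM replicate 1 and vehicle replicate 2. CerM replicate 3 held 529 TPM of 5 adipocyte markers, against 0.07 to 1.62 TPM elsewhere. Choroid plexus markers (6 genes, led by Ttr) summed to 9329 TPM in CerM replicate 1, 10966 TPM in CerM replicate 3 and 15743 TPM in vehicle replicate 3, against 253 to 305 TPM in the other 3 libraries. In each of these lists every gene was found in the table, and none was listed at 0 in all libraries. In bulk tissue, fewer cells of a type and less RNA per cell cannot be told apart.

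The 10 genes ranged from a mean of 28.7 TPM down to values at or near 0. Asah1, the lysosomal acid ceramidase, was the most abundant at 28.7 TPM over 6 libraries, above 67.8% of the 14916 genes that reached a mean of 1 TPM. Sgpp1 followed at 19.7 TPM, Sphk2 at 15.6 TPM and Sgpl1 at 11.1 TPM. These 4 genes kept this order in 6 of 6 libraries, although the ranges of Sphk2 (12.2 to 17.6 TPM) and Sgpl1 (8.53 to 13.4 TPM) overlapped across libraries. A lower tier held Acer3 at 5.64 TPM, Sgpp2 at 4.41 TPM, Asah2 at 3.62 TPM and Acer2 at 3.26 TPM. The ranges of neighbours within that tier overlapped. Acer3 lay above Sgpp2 in 6 of 6 libraries, while Sgpp2 above Asah2 and Asah2 above Acer2 held in 4 of 6 each. Sphk1 was low at 1.495 TPM, above 5.96% of tested genes, and lay below Acer2 in 6 of 6 libraries although their ranges overlapped. Acer1, which in mice is known mainly from skin, was listed at 0 in 4 libraries and at no more than 0.06 TPM in any.

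**Figure D1:**
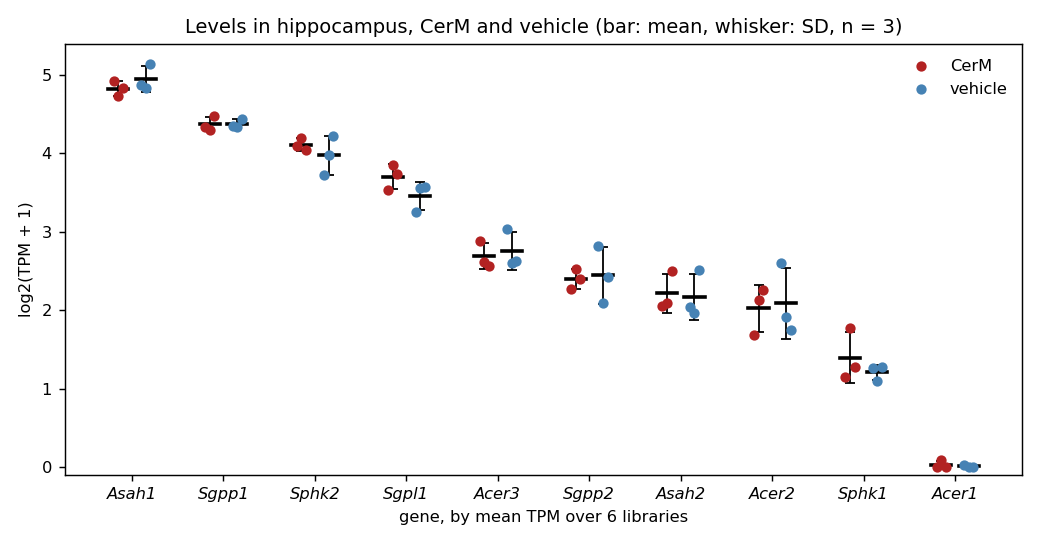
Level of each gene as log2(TPM + 1), with CerM libraries on the left and vehicle libraries on the right of each gene, and genes ordered by mean TPM over 6 libraries. Points are libraries, bars are means and whiskers are SDs (n = 3 each); the groups overlap for all 10 genes.

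The start regions of these genes differ in CpG density, a feature that marks many broadly expressed genes, and 3 are printed here to set the most CpG-dense window beside those of Asah2 and of Acer1. RefSeq promoter windows on the build GRCm38.p6 were found for 9 of the 10 genes, and the 250 bases before each start were searched for CG, which reads the same on both strands. Capitals mark each CG. Over 32851 such windows the median count was 6. The lines give Sgpl1 (chr10:61147685-61147934, minus strand), Asah2 (chr19:32103141-32103390, minus strand) and Acer1 (chr17:56982127-56982376, minus strand), all 5′ to 3′.
Sgpl1: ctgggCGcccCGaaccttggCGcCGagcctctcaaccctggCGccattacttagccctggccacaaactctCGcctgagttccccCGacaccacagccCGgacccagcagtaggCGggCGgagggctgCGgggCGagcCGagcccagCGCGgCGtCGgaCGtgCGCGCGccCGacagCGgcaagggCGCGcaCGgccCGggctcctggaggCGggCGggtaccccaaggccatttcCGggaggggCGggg
Asah2: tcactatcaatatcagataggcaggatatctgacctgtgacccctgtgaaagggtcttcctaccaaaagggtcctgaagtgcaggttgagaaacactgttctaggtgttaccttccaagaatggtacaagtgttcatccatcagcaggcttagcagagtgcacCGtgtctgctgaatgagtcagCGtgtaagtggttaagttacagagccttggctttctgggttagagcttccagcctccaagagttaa
Acer1: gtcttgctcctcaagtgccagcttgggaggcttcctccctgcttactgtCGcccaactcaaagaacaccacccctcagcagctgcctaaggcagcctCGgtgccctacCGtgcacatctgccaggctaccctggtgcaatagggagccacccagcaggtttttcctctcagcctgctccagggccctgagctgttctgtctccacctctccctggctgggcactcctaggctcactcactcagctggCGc

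The Sgpl1 window held 31 CG, a number that 5.19% of all windows reached. Those of Asah2 and Acer1 held 2 and 4 CG, and 81.2% and 62.2% of all windows held at least as many. Sgpp1, Sgpp2 and Acer2 had 24 CG each. Sphk2 had 20 and 27 CG at its 2 annotated starts and Acer3 had 17 and 2. The 5 annotated starts of Sphk1 ranged from 4 to 19. High CpG counts stood beside both high levels (Sgpp1, 19.7 TPM) and low ones (Acer2, 3.26 TPM), and the level of Acer1, at or near 0, beside a low count. This is a description of the sequence, and which start was used in these libraries was not measured.

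Between CerM and vehicle, none of the 10 genes separated the groups. Of the 9 genes tested with limma, 0 passed an adjusted p of 0.05, as for the whole table, where 0 of 14916 genes (0%) passed. At an unadjusted p below 0.05 there were 0 of the 9, against 2.7% of all tested genes. Groups that did not overlap were found for 0 of the 9, against 7.3% of all tested genes. Log2 fold changes of TPM + 1 ran from −0.12 for Asah1 to 0.24 for Sgpl1. They lay above 0 for 4 of the 9 genes, where 58.8% of all tested genes did, and their median was 0.00, with 0.03 over all genes. The 95% confidence interval excluded a 2-fold difference of TPM + 1 for 9 of 9 genes and a 1.5-fold difference for 6 of 9, against 90.2% and 63.7% of all tested genes. On this scale the change of low genes is understated, and the exclusions depend on it. With a pseudocount of 0.1 in place of 1, the interval of Sphk1 (−0.57 to 1.13) included a 2-fold difference. Those of Asah2 (−0.56 to 0.68) and Sgpp2 (−0.64 to 0.53) then included a 1.5-fold difference.

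**Figure D2:**
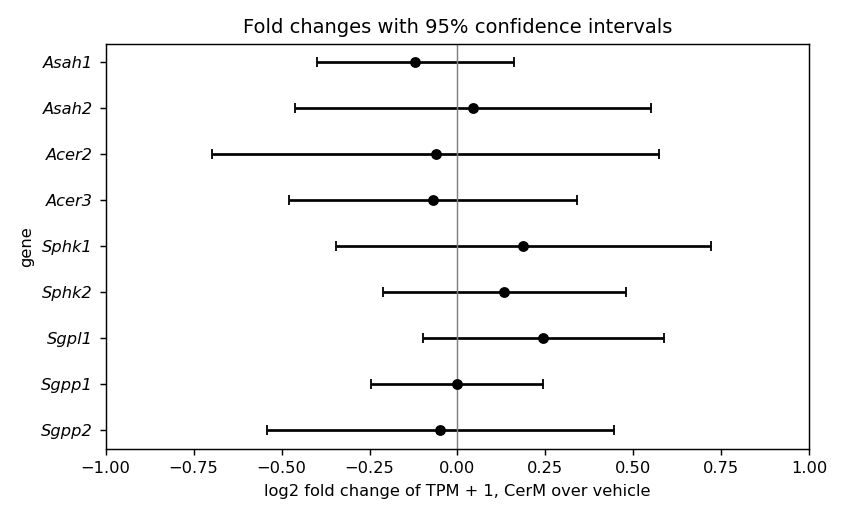
Log2 fold change of TPM + 1, CerM over vehicle, for the 9 tested genes in the order ceramidases, kinases, lyase and phosphatases. Points are limma estimates and bars their 95% confidence intervals (3 libraries per group); every interval includes 0, and that of Sgpl1 (−0.10 to 0.59) has the highest centre and the highest lower end.

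Among the ceramidases, Asah1 works in the lysosome, where it needs a saposin as helper. It stood at 29.32, 25.49 and 27.39 TPM in CerM replicates 1 to 3, and at 28.17, 27.53 and 34.16 TPM in vehicle replicates 1 to 3. Vehicle replicate 3 was the highest and CerM replicate 2 the lowest, and the remaining 4 libraries lay between 27.39 and 29.32 TPM whatever their treatment. The means were 27.4 ± 1.92 TPM in CerM and 30.0 ± 3.66 TPM in vehicle (SD, n = 3 each). Its log2 fold change was −0.12 ± 0.12 (SE; 95% confidence interval −0.40 to 0.16), with a limma adjusted p of 0.989. Without vehicle replicate 3 it was −0.02. Psap, which encodes the precursor of the saposins, averaged 1362 ± 106 TPM in CerM and 1321 ± 156 TPM in vehicle, with an adjusted p of 0.989.

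Asah2 encodes the neutral ceramidase, an enzyme of the plasma membrane that is known for its role in the gut. Its values were 3.14, 3.26 and 4.64 TPM in CerM replicates 1 to 3, against 3.10, 2.89 and 4.69 TPM in vehicle replicates 1 to 3. Replicate 3 of each treatment was high and the other 4 libraries lay close together, so the spread ran within the groups and not between them. For Asah2 the log2 fold change was 0.04 ± 0.22 (SE; −0.46 to 0.55), with an adjusted p of 0.991 in limma. It turned to −0.10 without CerM replicate 3 and to 0.21 without vehicle replicate 3. The same pair of libraries had the highest sums of 6 endothelial markers, 208 TPM in CerM replicate 3 and 200.5 TPM in vehicle replicate 3, against 168 to 193 TPM in the others. Of these, Pecam1, Cdh5 and Slco1a4 were highest in this pair, while Cldn5 and Flt1 were highest in CerM replicate 2. Ly6c1 was higher in vehicle replicate 1 (125 TPM) than in vehicle replicate 3 (120 TPM). The pair also led for the sums of 5 mural markers (92.4 and 71.0 TPM, against 60.2 to 64.6 TPM) and 5 meningeal fibroblast markers (91.1 and 73.3 TPM, against 45.4 to 63.0 TPM). Of the mural markers, Pdgfrb and Acta2 were highest in this pair. Rgs5 and Myh11 were higher in CerM replicates 1 and 2, respectively, than in vehicle replicate 3. Kcnj8 was higher in CerM replicate 2 than in CerM replicate 3. The pair led as well for choroid plexus markers (10966 and 15743 TPM, against 253 to 9329 TPM). The 9329 TPM were in CerM replicate 1, where Asah2 was low (3.14 TPM). The sums of 5 red blood cell markers were also highest in the pair (1327 and 1288 TPM, against 810 to 1208 TPM). Of these, Alas2 and Hbb-bt were higher in vehicle replicate 2 than in vehicle replicate 3. The part of these cells in the Asah2 values was not tested.

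The alkaline ceramidases sit in the endoplasmic reticulum and Golgi membranes. Acer3, the most abundant of them, had 6.35, 5.13 and 4.92 TPM in CerM replicates 1 to 3, against 7.16, 5.09 and 5.19 TPM in vehicle replicates 1 to 3. Replicate 1 of each treatment was high, and the other 4 libraries lay within 4.92 to 5.19 TPM. Its log2 fold change was −0.07 ± 0.18 (SE; −0.48 to 0.34), with a limma adjusted p of 0.9903, and it turned to 0.07 without vehicle replicate 1. Acer3 transcripts share stretches of at least 95% identity over 100 bases or more with transcripts of 99 other genes, the longest of 1691 bases with Gm36958 (mean 1.06 TPM). The part of reads from such stretches in the Acer3 level was not tested.

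Acer2, a Golgi enzyme, was the most variable of the 9 genes on the log scale, with an SD of 0.34 over the 6 libraries, above 83.6% of tested genes. It had 2.21, 3.38 and 3.78 TPM in CerM replicates 1 to 3, against 5.04, 2.78 and 2.35 TPM in vehicle replicates 1 to 3. CerM replicate 1 was the lowest library and vehicle replicate 1 the highest, and the groups overlapped. The log2 fold change was −0.06 ± 0.27 (SE; −0.70 to 0.57), with an adjusted p of 0.991 in limma. It was 0.19 without vehicle replicate 1 and −0.23 without vehicle replicate 3. The genes whose centred profile came closest to that of Acer2 were Plcd3, Gm20033 and Ccdc73, with mean absolute differences of 0.05, 0.06 and 0.07 on the log2(TPM + 1) scale over 6 libraries, where Acer2 itself deviated from its mean by 0.27.

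Acer1 was too low to enter the limma test. It was listed at 0, 0.06 and 0 TPM in CerM replicates 1 to 3, and at 0.02, 0 and 0 TPM in vehicle replicates 1 to 3. A two-sided exact permutation test of the difference in means gave p = 1, where 3 against 3 libraries can give no less than 0.1. No fold is given at these levels.

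Sphingosine kinase RNA was mostly Sphk2. This isoform is known from the nucleus and mitochondria, whereas Sphk1 acts in the cytosol and at the plasma membrane. Sphk2 had 16.01, 17.34 and 15.42 TPM in CerM replicates 1 to 3, against 12.21, 14.77 and 17.62 TPM in vehicle replicates 1 to 3. The CerM values were close together and lay inside the wider range of vehicle, where replicate 1 was the lowest of the 6 libraries and replicate 3 the highest. The means were 16.3 ± 0.98 TPM in CerM and 14.9 ± 2.71 TPM in vehicle (SD, n = 3 each). The log2 fold change was 0.13 ± 0.15 (SE; −0.21 to 0.48), with a limma adjusted p of 0.989. Without vehicle replicate 1 it was 0.01, and without vehicle replicate 3 it was 0.26.

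Exons of Sphk2 lie over those of 2 abundant genes on the opposite strand, and the sources used here do not state that strand was kept. In the GENCODE annotation of build GRCm38, Dbp, a transcription factor of the circadian clock, covers 13.0% of the exonic bases of Sphk2, and Rpl18, a ribosomal protein gene, covers 8.97%. Dbp averaged 77.2 ± 11.7 TPM in CerM and 78.7 ± 17.5 TPM in vehicle, and Rpl18 451 ± 23.5 TPM in CerM and 480.2 ± 11.2 TPM in vehicle. Both were highest in vehicle replicate 1 (97.8 and 490.0 TPM), where Sphk2 was lowest. In vehicle replicate 3, where Sphk2 was highest, Dbp was lowest (63.4 TPM) but Rpl18 stood at 482.6 TPM. The part of reads from the opposite strand in the Sphk2 values was not tested. Sgpp2 shares 6.20% of its exonic bases with Farsb in the same way, a gene at 62.7 ± 4.11 TPM in CerM and 63.9 ± 4.11 TPM in vehicle. Sphk1 shares 4.02% with the antisense gene Gm29292, which did not exceed 0.19 TPM.

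Sphk1, the kinase that growth factors and cytokines activate, was near the lower limit of the test. It had 1.22, 2.40 and 1.41 TPM in CerM replicates 1 to 3, against 1.39, 1.14 and 1.41 TPM in vehicle replicates 1 to 3. CerM replicate 2 was high, and the other 5 libraries lay between 1.14 and 1.41 TPM. For Sphk1 the log2 fold change was 0.19 ± 0.23 (SE; −0.35 to 0.72), with an adjusted p of 0.989 in limma, and it was 0.00 without CerM replicate 2. That library had the highest value of the 6 for 41.1% of all tested genes. Its astrocyte, oligodendrocyte and microglia marker sums were also the highest of the 6 libraries, and the part of these cells in the Sphk1 value was not tested. Sphk1 transcripts share stretches of at least 95% identity over 100 bases or more with those of 116 other genes. None is longer than the 151 bases shared with Slc25a51 (mean 45.9 TPM). By the same measure Sgpl1 shares such stretches with 11 other genes, the longest of 120 bases with Madd (mean 66.7 TPM). Sgpp2 shares 104 bases with Dcst1 (mean 3.42 TPM) alone, and Acer1 shares stretches of up to 148 bases with 56 genes.

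Sgpl1, whose lyase sits in the endoplasmic reticulum and needs vitamin B6 as cofactor, had the largest fold change of the 9 tested genes on the log2(TPM + 1) scale, while Sphk1 had a larger ratio of mean TPM (1.28) and a larger change at a pseudocount of 0.1 (0.28, against 0.26 for Sgpl1). It stood at 10.53, 13.38 and 12.28 TPM in CerM replicates 1 to 3, against 8.53, 10.74 and 10.84 TPM in vehicle replicates 1 to 3. The values of CerM replicates 2 and 3 lay above all vehicle values, while CerM replicate 1 lay below vehicle replicates 2 and 3, so the groups overlapped. The means were 12.1 ± 1.44 TPM in CerM and 10.04 ± 1.31 TPM in vehicle (SD, n = 3 each), a ratio of 1.202. The log2 fold change was 0.24 ± 0.15 (SE; −0.10 to 0.59), with an unadjusted p of 0.137 and an adjusted p of 0.989 in limma. It remained above 0 with each library left out in turn, from 0.14 without vehicle replicate 1 to 0.33 without CerM replicate 1, and was 0.13 without vehicle replicate 1 and CerM replicate 3 together. Sgpl1 was lowest in vehicle replicate 1 and highest in CerM replicate 2, the libraries with the lowest and the highest sums of oligodendrocyte markers (3907 and 7147 TPM) and of astrocyte markers (1611 and 2110 TPM). Over all tested genes, vehicle replicate 1 was the lowest library for 32.8% and CerM replicate 2 the highest for 41.1%. CerM replicate 3 had more Sgpl1 RNA than vehicle replicate 3. Its sums of both lists were lower, at 6183 and 1788 TPM against 6812 and 1843 TPM. Of the astrocyte markers, Gfap, Slc1a2, Slc1a3, Aqp4 and Gja1 were lowest in vehicle replicate 1. Aldh1l1 was highest there (34.2 TPM), and Aldoc (912 TPM) lay above all libraries but CerM replicate 2. The part of these cells in the Sgpl1 values was not tested.

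The S1P phosphatases are enzymes of the endoplasmic reticulum. Sgpp1 was the steadiest of the 9 tested genes, with 19.21, 18.73 and 21.26 TPM in CerM replicates 1 to 3, against 19.29, 19.18 and 20.71 TPM in vehicle replicates 1 to 3. Its means were 19.7 ± 1.34 TPM in CerM and 19.7 ± 0.85 TPM in vehicle (SD, n = 3 each). The SD over 6 libraries was 0.07 on the log scale, above only 3.16% of tested genes. With a log2 fold change of 0.00 ± 0.10 (SE; −0.24 to 0.24) and a limma adjusted p of 0.999, its interval excluded a 1.5-fold difference of TPM + 1.

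Sgpp2, a phosphatase linked to inflammatory signalling in other cells, had 3.81, 4.73 and 4.26 TPM in CerM replicates 1 to 3, against 6.03, 3.25 and 4.37 TPM in vehicle replicates 1 to 3. Vehicle replicates 1 and 2 were the highest and the lowest of the 6 libraries, and the CerM values lay between them. Limma put the log2 fold change at −0.05 ± 0.21 (SE; −0.54 to 0.44), with an adjusted p of 0.991. It was 0.14 without vehicle replicate 1 and −0.23 without vehicle replicate 2. By the same measure of likeness, the closest profiles to that of Sgpp2 were those of Rhobtb2 (0.04), Mtcl1 (0.05) and Grm4 (0.05), where Sgpp2 itself deviated from its mean by 0.17. For Asah2 they were Aldh2 (0.03), Ctsl (0.04) and Gm43254 (0.05), against its own 0.21.

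Summed by step, the pathway kept a similar make-up in both treatments. The 5 ceramidase genes added up to 39.7 ± 2.06 TPM in CerM and 42.7 ± 4.10 TPM in vehicle (SD, n = 3 each). Asah1 made up 69.0% ± 2.20 of that sum in CerM and 70.1% ± 4.70 in vehicle. Within the alkaline ceramidases, Acer3 supplied 63.5% ± 9.37 in CerM and 64.0% ± 5.15 in vehicle. The alkaline sum was 8.56, 8.57 and 8.70 TPM in CerM replicates 1 to 3, against 12.22, 7.87 and 7.54 TPM in vehicle replicates 1 to 3. The CerM sums were nearly equal, with Acer3 and Acer2 in opposite order over those libraries, and vehicle replicate 1 stood above the other 5.

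The kinases added up to 17.9 ± 1.58 TPM in CerM and 16.2 ± 2.73 TPM in vehicle, with 90.8% ± 2.64 of it from Sphk2 in CerM and 91.7% ± 1.70 in vehicle. Phosphatases and lyase together came to 36.1 ± 2.23 TPM in CerM and 34.3 ± 1.43 TPM in vehicle. The ratio of the kinase sum to that sum, S1P-making over S1P-removing RNA, was 0.50 ± 0.05 in CerM and 0.47 ± 0.06 in vehicle. It ranged from 0.45 to 0.54 in CerM and from 0.40 to 0.53 in vehicle, so the groups overlapped. The ratio of ceramidase to kinase sums was 2.38, 1.89 and 2.42 in CerM replicates 1 to 3, against 3.20, 2.41 and 2.44 in vehicle replicates 1 to 3. CerM replicate 3 lay just above vehicle replicate 2, so the groups touched, and vehicle replicate 1 was again the farthest out. RNA sums do not measure enzyme activity or lipid levels.

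**Figure D3:**
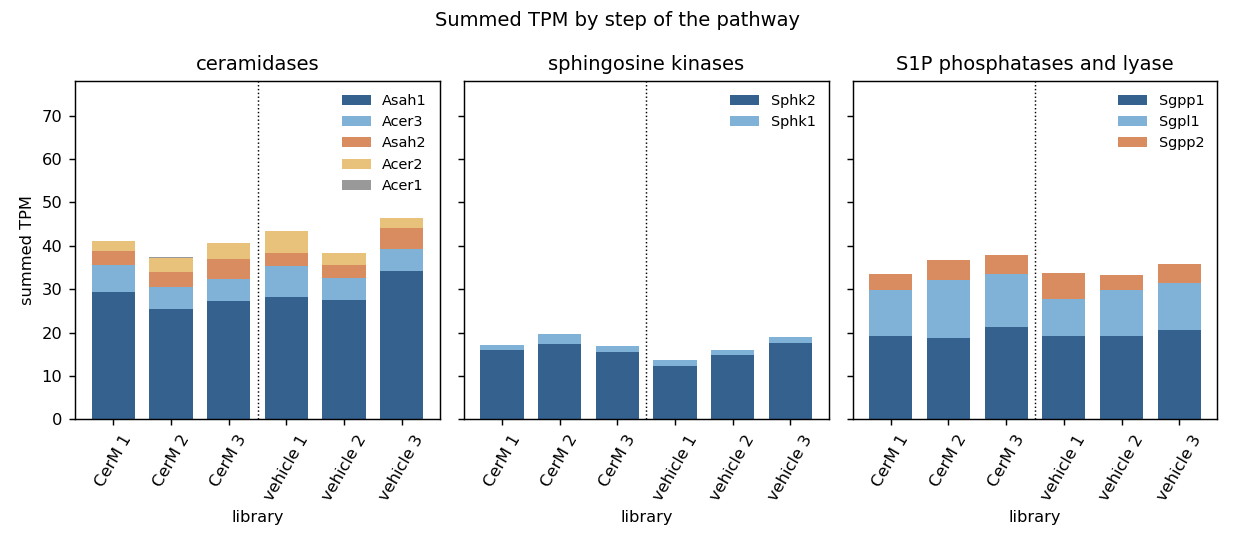
Summed TPM in each library for the ceramidases, the sphingosine kinases, and the S1P phosphatases and lyase, with CerM libraries left of the dotted line and vehicle libraries right of it. Segments are genes; Asah1, Sphk2 and Sgpp1 form the largest segment in every library, and the alkaline ceramidase Acer2 is tallest in vehicle replicate 1.

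Much of the spread of these genes ran between libraries of the same treatment. Vehicle replicate 1 had the highest value for 3 of the 9 genes, Acer2, Acer3 and Sgpp2 (0.54, 0.31 and 0.40 above the gene's mean on the log2(TPM + 1) scale). It had the lowest value for 2 of the 9, Sgpl1 and Sphk2 (−0.33 and −0.32). Over all tested genes it was the highest library for 16.9% and the lowest for 32.8%. This is the library with the neocortex, hippocampal neuron and oligodendrocyte sums given above, and their part in these 5 genes was not tested. Vehicle replicate 3 was the highest library for Asah1, Asah2 and Sphk2 and the lowest for none of the 9 genes, where it was the highest for 15.4% and the lowest for 9.25% of all tested genes. Vehicle replicate 2 was the lowest library for 3 of the 9 genes (Sgpp2, Asah2 and Sphk1), against 11.3% of all tested genes. Sgpp1 deviated from its mean by no more than 0.104 in any library.

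**Figure D4:**
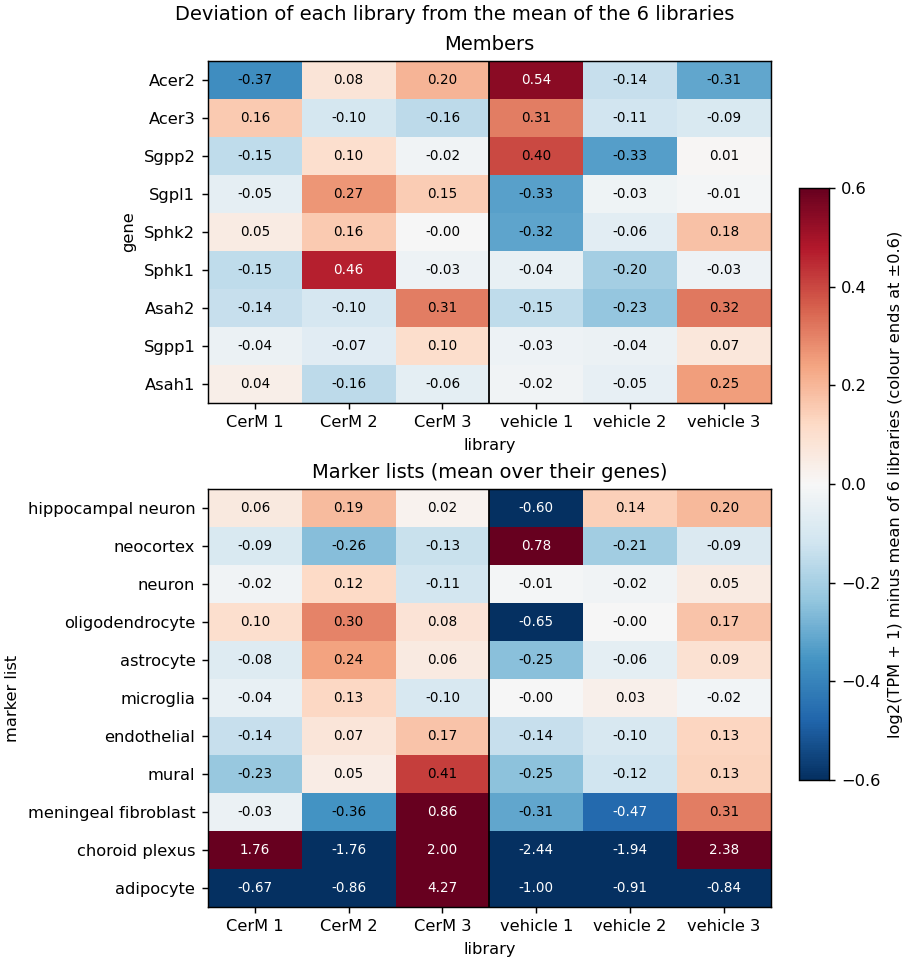
Deviation of each library from the mean of the 6 libraries on the log2(TPM + 1) scale, for the 9 tested genes (upper panel) and as the mean over the genes of each marker list (lower panel), with CerM libraries left of the line and vehicle libraries right of it. Vehicle replicate 1 has the extreme value for Acer2 (0.54) and for the neocortex list (0.78); colours end at 0.6, and numbers give the full values.

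The genes around this segment were counted from 6 lists of ceramide synthesis, ceramide release, other users of ceramide, S1P receptors, S1P and sphingosine transport, and the lyase's cofactor and products with lipid phosphate phosphatases. Of 49 such genes, 44 were tested, and limma called 0 in either direction. At an unadjusted p below 0.05 there was 1 of the 44, against 2.7% of all tested genes. Fold changes lay above 0 for 34 of the 44 (77.3%, against 58.8% of all tested genes), with a median of 0.11 against 0.03. The groups did not overlap for 5 of 44 (11.4%, against 7.3%), of which 4 were higher in CerM (9.09%, against 3.26%). Without vehicle replicate 1, 25 of the 44 (56.8%) lay above 0, against 51.2% of all tested genes. Without vehicle replicate 1 and CerM replicate 3 together, 25 (56.8%) did, against 56.6%. With another library left out, the share ran from 65.9% (against 44.3%, without CerM replicate 2) to 88.6% (against 61.3%, without vehicle replicate 3). With median-ratio scaling 27 (61.4%) did, against 50.5%, and with quantile scaling 30 (68.2%), against 50.1%. Genes in these lists are not independent of each other or of cell make-up, and the counts are a description.

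All 3 tested S1P receptor genes lay above 0 (median 0.25), also under each of the 3 other scalings and with each library left out in turn. All 6 tested transport genes lay above 0 as well (median 0.13), but 4 of 6 did with median-ratio scaling and 5 of 6 with quantile scaling. With a library left out in turn, 5 of 6 did, except without CerM replicate 1, where 6 did, and the median was 0.03 without CerM replicate 2. S1pr1, the receptor that S1P uses on astrocytes and endothelium, had 68.26, 82.44 and 71.96 TPM in CerM replicates 1 to 3, against 61.80, 59.84 and 64.39 TPM in vehicle replicates 1 to 3. Its groups did not overlap, and the log2 fold change was 0.25 ± 0.10 (SE; 0.02 to 0.49), with an unadjusted p of 0.0381 and an adjusted p of 0.989 in limma. The S1pr1 interval included 0 with the replicate number as a block (−0.02 to 0.53) and without the variance trend. With a library left out in turn it included 0, except without CerM replicate 1 (0.04 to 0.57). It excluded 0 under each of the 3 other scalings. Abca1, a lipid exporter, had 4.15, 4.42 and 4.51 TPM in CerM replicates 1 to 3, against 2.64, 3.21 and 4.13 TPM in vehicle replicates 1 to 3, also without overlap (adjusted p = 0.989). Astrocyte marker sums overlapped, at 1668 to 2110 TPM in CerM and 1611 to 1843 TPM in vehicle, and endothelial sums did too, at 168 to 208 TPM in CerM and 187 to 200.5 TPM in vehicle. The sum of 6 neuron markers did not overlap, at 3552 to 3603 TPM in CerM and 3685 to 4290 TPM in vehicle, while the mean log deviation of the same 6 genes did (−0.11 to 0.12 in CerM and −0.02 to 0.05 in vehicle). The part of these cells in the S1pr1 and Abca1 values was not tested.

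On the ceramide side, 9 of 12 synthesis genes lay above 0 (median 0.09), 5 of 8 release genes (0.03), 5 of 6 other users of ceramide (0.10) and 6 of 9 genes of the last list (0.03). Without vehicle replicate 1 these counts were 6 of 12 (median 0.02), 2 of 8 (−0.05), 4 of 6 (0.10) and 5 of 9 (0.00). The gene with the smallest p in each was Cers2, Smpd4, Ugt8a and Plpp3, and each had an adjusted p of 0.989 in limma. Cers2, the ceramide synthase of very long chains, averaged 71.3 ± 7.52 TPM in CerM and 59.1 ± 16.9 TPM in vehicle, and its log2 fold change was 0.30, or 0.07 without vehicle replicate 1. Smpd4, a neutral sphingomyelinase, averaged 15.96 ± 5.21 TPM in CerM and 10.8 ± 1.33 TPM in vehicle, with 21.94 TPM in CerM replicate 2. Ugt8a, which makes galactosylceramide for myelin, averaged 28.6 ± 2.97 TPM in CerM and 22.5 ± 5.62 TPM in vehicle. Plpp3, a surface phosphatase that can also take the phosphate off S1P, averaged 119 ± 12.8 TPM in CerM and 102 ± 12.1 TPM in vehicle. Cers2, Ugt8a and Plpp3 were each lowest in vehicle replicate 1, the library with the lowest oligodendrocyte and astrocyte marker sums. Among the astrocyte markers, Aldh1l1 was instead highest there. The part of these cells in the values of Cers2, Ugt8a and Plpp3 was not tested.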

How the data were processed

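The labels' protocols describe TRIzol extraction, DNase I treatment and an Illumina TruSeq RNA library. The submitters' processing notes name HISAT2, StringTie, RSEM and GRCm39, with no versions or roles. The authors deposited TPM values with 2 decimals. A limma fit with variance trend (version 3.58.1, R 4.3.3) used log2(TPM + 1) of the 14916 genes whose mean over 6 libraries reached 1 TPM. Its two-sided p-values had Benjamini-Hochberg adjustment across the whole set, and 0.05 was the threshold. Acer1, the only member below the minimum, had an exact permutation test, and the pathway genes below it had no test. The members, lists and tests were chosen with earlier results of these data known. Named genes were the 10 members, the gene with the smallest p in each pathway list, and the 3 closest profiles for the 3 most variable members. Psap and the genes that share exons or sequence with members fall outside that rule and were chosen after their values were seen. Marker genes came from the marker lists. Exon overlaps and shared sequence (blastn 2.17.0) came from GENCODE M21 on GRCm38, an older build than the files', so no gene coordinates are given. Promoter windows are RefSeq's. The test was checked on simulated data. Alternatives changed the pseudocount, minimum, scaling, variance model, pairing and libraries. Python 3.11.15, pandas 2.3.3 and matplotlib 3.10.9 served for summaries and plots.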

Additional observations from a re-analysis of the deposited data

How the results depend on the processing

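None of the 9 tested members was called in any of 16 alternatives run, and the smallest adjusted p for a member was 0.763. With the replicate block 0 members, 0 pathway genes and 0 of all genes were called. Deviations of same-numbered libraries from their group means had r across genes of 0.01, 0.20 and 0.22, and those of differently numbered ones −0.21 to 0.07. Deviations from a mean of only 3 libraries are tied to each other, so these r values cannot decide whether the numbers mark pairs. The labels state no pairs, and the main test used none. Over all genes, counts of calls with 1 library left out ran from 1 to 8, the highest without CerM replicate 3, and 1 was called without vehicle replicate 1 and CerM replicate 3 together, an alternative chosen after seeing the data. Asah1 stayed below 0, and Sgpl1, Sphk1 and Sphk2 above 0, in every alternative run. With 1 library left out, log2 fold changes changed sign for Acer2 (−0.23 to 0.19), Acer3 (−0.16 to 0.068), Asah2 (−0.10 to 0.21), Sgpp1 (−0.053 to 0.034) and Sgpp2 (−0.23 to 0.14). Without vehicle replicate 1 and CerM replicate 3 they were 0.075 for Acer2, 0.13 for Acer3, −0.16 for Asah2 and 0.14 for Sgpp2. Asah2 was −0.038 with quantile scaling, and Sgpp1 was 0.014 without mitochondrial DNA genes. The cause of these changes of sign was not tested. Acer1 had no fitted value in the main test, and a minimum of 5 TPM left out Sgpp2, Asah2, Acer2 and Sphk1. Depth is unknown, so whether low members were limited by reads was not tested.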
